A study of Homo sapiens with 24 samples.

Results

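HEK293 cells that carried the empty vector were compared with untransfected HEK293 cells, both after H2O2, in 6 of the 24 libraries of the series: 3 labelled empty vector and 3 labelled untransfected, 1 of each in every one of 3 batches. HEK293 is an established line of human embryonic kidney cells. All 6 libraries came from cells exposed to 150 uM H2O2 for 8 h, so the dose and time of H2O2 were the same in both groups. The comparison asks what transfection with a plasmid lacking an EVI1 insert went along with. The empty vector group is the transfection control for cells given wild-type EVI1 (EVI1-WT) or its EVI1-AQA mutant, and the same pair of groups without H2O2 is set beside it. Nothing in the sources used here says whether the 3 libraries of a group came from separate cultures other than their batch number, so p-values measure the spread between these libraries, which may be technical. The cells were transfected transiently, the vector is the pCMV-flag plasmid, and the share of cells that took it up is not given. The growth protocol also lists luciferase reporter plasmids, and whether the sequenced cells received them is not stated. The source name calls every library transfected, including those whose plasmid label is untransfected, and the plasmid label was used.

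Transfection brings foreign DNA and a lipid or polymer carrier into cells. Cytosolic DNA can be sensed and answered by interferon-stimulated genes, the carrier passes through endosomes, and the cell has to deal with damage to its membranes. H2O2 oxidises thiols of proteins and glutathione, breaks DNA and activates stress kinases, and cells answer with immediate early genes, p53 targets and the enzymes that make or use glutathione. Each of these programmes has members on chromosome 1, which is the part of the genome described here.

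The table of the study holds 11579 rows of log2 values, each centred to a mean of 0 over the 8 libraries of its batch. A value therefore says how far a library lies from its batch and carries no absolute level, and the number of reads is unknown. The log base is not written in the table and was taken as 2, so every fold below rests on that reading. On chromosome 1 of GRCh38, 50.7% of protein-coding genes and 2.39% of other genes had a row. On chromosomes 2 to 22 these shares were 19.3% and 16.4%, so the identifiers there do not separate coding from other genes and no gene of those chromosomes is named as a result. Chromosome 1 has 1131 rows, of which 1045 carry a protein-coding gene, 48 a long non-coding RNA and 38 another kind. Of 8 chromosome 1 genes looked up as cell type markers, LIN28A among them, PDPN had a row, and without a level the labelled cell type could not be checked.

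One of the 6 libraries stood apart. A row that carries the identifier of CACNB3, and that drew attention only through its values, separated the untreated cells with an EVI1 plasmid (2.62 to 4.14) from untreated cells without one (-4.49 to -1.64). In the cells with H2O2 it was at -3.48, 4.36 and -2.17 in the empty vector libraries of batches 1, 2 and 3, and at -2.98, -4.20 and -3.63 in the untransfected ones. The empty vector library of batch 2 thus lay with the EVI1 libraries in this row, and the EVI1-WT library with H2O2 of the same batch lay at -4.38, with the libraries that lack the plasmid. The row was no clean marker with H2O2, since the EVI1-AQA library of batch 1 also lay low, at -2.60. Over all other rows, the batch 2 empty vector library had correlations of 0.35 and 0.32 with the EVI1-WT libraries with H2O2 of batches 1 and 3. With the other empty vector libraries with H2O2 these were 0.15 and 0.11. Those other empty vector libraries, of batches 1 and 3, had a correlation of 0.17 with each other, so correlations within the group were low throughout. These correlations are across rows of libraries centred in the same way, and rows are not independent. The libraries were kept in their labelled groups, each value is given by batch, and the counts are repeated without the library labelled empty vector, H2O2, replicate 2. That repeat kept the untransfected library with H2O2 of batch 2, so its differences are not fully paired by batch. It also kept the EVI1-WT library with H2O2 of batch 2 in its labelled group, where it enters the pooled spread.

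**Figure D1:**
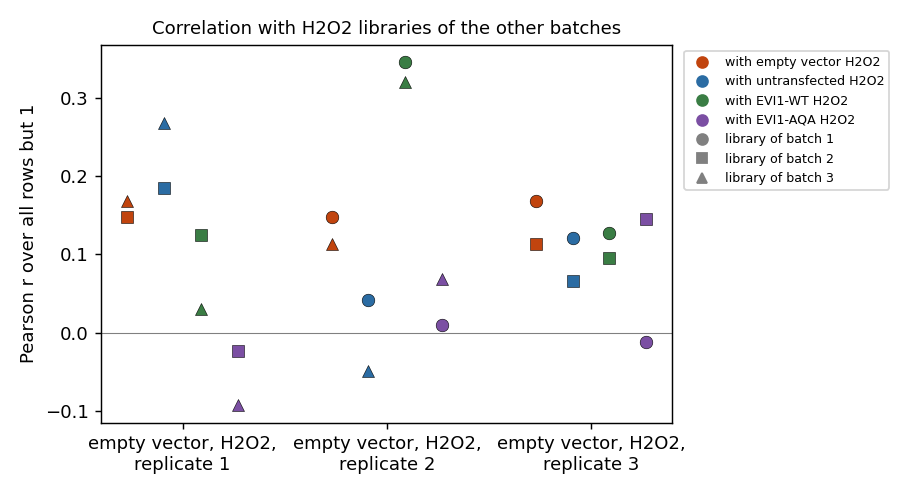
Pearson correlation over rows (y axis) of each empty vector library with H2O2 (x axis) with the H2O2 libraries of the other 2 batches. Colours mark the group and symbols the batch of the other library. The replicate 2 library has its highest values, 0.35 and 0.32, with EVI1-WT, and replicates 1 and 3 do not exceed 0.13 with EVI1-WT.

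No row differed between empty vector and untransfected cells at a Benjamini-Hochberg adjusted p under 0.05 in limma, with batch as a block and the spread pooled over all 24 libraries. The smallest adjusted p was 0.296. The study used an unadjusted p under 0.05 between groups only within transcripts already chosen by a group ANOVA, so its counts are not comparable. At that threshold over all rows, 517 rows (4.46% of 11579) were higher in empty vector cells and 454 (3.92%) were lower, 8.39% together. On chromosome 1, 48 rows (4.24% of 1131) were higher and 55 (4.86%) were lower, 9.11% together. Without the library that stood apart, 32 rows of chromosome 1 (2.83%) and 428 of all rows (3.70%) passed that threshold. Of the 103 rows of chromosome 1, 26 (25.2%) passed again without that library with the same sign. All gene differences below are therefore differences of these libraries that did not pass the adjusted test.

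Batch 2 had the widest differences. The SD of the difference between empty vector and untransfected cells over all rows was 0.293 in batch 1, 0.544 in batch 2 and 0.397 in batch 3, on the log2 scale. In untreated cells it was 0.306, 0.578 and 0.453, so batch 2 was widest there as well, without the library that stood apart. Rows with a difference over 1 in size made up 0.898%, 6.78% and 2.18% of the table in batches 1, 2 and 3. Among the 103 rows of chromosome 1 with an unadjusted p under 0.05, the largest of the 3 batch differences was that of batch 2 in 69 (67.0%), against 580 (51.3%) of all 1131 rows. Across the 11579 rows, differences of batches 1 and 2 had a correlation of 0.113, those of batches 1 and 3 of 0.0977 and those of batches 2 and 3 of 0.150. Rows thus kept little of their order from batch to batch, and 31.5% of all rows (31.7% on chromosome 1) had 1 sign in all 3 batches.

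**Figure D2:**
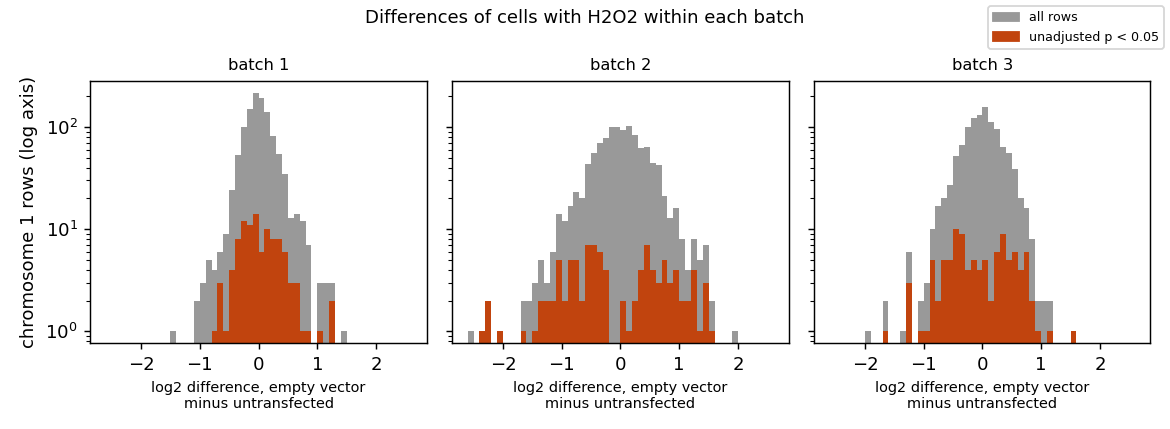
Histograms of the log2 difference, empty vector minus untransfected with H2O2, of the chromosome 1 rows (log y axis) in each batch. Grey bars are all 1131 rows and red bars the 103 with an unadjusted p under 0.05. The spread is narrowest in batch 1 and widest in batch 2, where few red rows lie near 0.

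The highest difference on chromosome 1 was that of FBXO2, which encodes the F-box protein by which an SCF ubiquitin ligase binds glycoproteins with high-mannose sugars. FBXO2 (ENSG00000116661) lies at chr1:11637018-11655785 on the minus strand. Its log2 values in the empty vector libraries of batches 1, 2 and 3 were -0.19, 0.46 and 0.31. In the untransfected libraries they were -0.94, -0.95 and -1.28. All empty vector libraries lay above all untransfected libraries. The batch differences were 0.75, 1.41 and 1.60, with a mean of 1.25 ± 0.45 (SD over 3 batches), or 2.38-fold. limma gave an SE of 0.25, an unadjusted p of 7.14e-05 and an adjusted p of 0.296. Without the library that stood apart the difference was 1.10 (unadjusted p = 0.000945 in limma), so it did not rest on that library. An exon of FBXO44 lies on the opposite strand within FBXO2, and the FBXO44 row had batch differences of 0.72, -0.48 and 0.32. Whether the counting used strand is not given in the sources used here.

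CASP9 came next. It encodes caspase-9, the initiator protease that the apoptosome activates when cytochrome c leaves mitochondria. CASP9 (ENSG00000132906, chr1:15490832-15526534, minus strand) was at 0.24, 0.77 and 0.28 in the empty vector libraries and at -0.45, -0.70 and -0.51 in the untransfected libraries. The groups did not overlap. The batch differences of 0.68, 1.47 and 0.78 gave a mean of 0.98 ± 0.43 (SD over 3 batches), or 1.97-fold, with an unadjusted p of 0.000333 and an adjusted p of 0.296 in limma. Without the library that stood apart it was 0.78 (unadjusted p = 0.0046 in limma).

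Among the other rows of the apoptosis machinery, DFFA was lower. It encodes the inhibitor of the caspase-activated DNase, which caspase-3 cleaves. DFFA (ENSG00000160049, chr1:10456522-10472529, minus strand) was at 0.24, -0.23 and -0.28 in the empty vector libraries and at 0.36, 0.50 and 0.15 in the untransfected libraries. The empty vector library of batch 1 lay above the untransfected library of batch 3, so the groups overlapped. The mean difference was -0.43 ± 0.31 (SD over 3 batches), with an unadjusted p of 0.00906 in limma, and it was -0.34 (unadjusted p = 0.0525 in limma) without the library that stood apart. In a list of 8 apoptosis genes of chromosome 1 that was written after these values were seen, CASP9 was higher, DFFA was lower and the other 6 did not pass an unadjusted p under 0.05. DFFB, which encodes the DNase itself, was at -0.04. The median of the list was 0.01, against -0.00 over all rows.

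SPATA1 was higher in empty vector cells both with and without H2O2. SPATA1 (ENSG00000122432, chr1:84506300-84567379, plus strand) was at 0.43, 0.27 and 0.13 in the empty vector libraries with H2O2 and at -0.26, -1.04 and -0.62 in the untransfected ones. Its mean difference was 0.92 ± 0.34 (SD over 3 batches), or 1.89-fold, with an unadjusted p of 0.000465 and an adjusted p of 0.296 in limma. In untreated cells the difference was 1.02 (SE 0.22, unadjusted p = 0.00016 in limma), and the difference between the conditions was -0.10 (SE 0.31). Empty vector libraries lay above untransfected libraries in all 3 batches under both conditions, with batch differences from 0.69 to 1.44. Exons of CTBS and GNG5 lie on the opposite strand within it, at -0.19 and 0.06.

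The other 9 of the 12 leading higher rows were MKNK1, THAP3, CCDC23, RSRP1, STPG1, EFNA1, GMEB1, PPIE and CENPL. MKNK1 encodes a kinase that acts below the ERK and p38 MAP kinases on the translation factor eIF4E. It was at 0.22, 0.07 and 0.15 in the empty vector libraries and at -0.46, -0.02 and -0.48 in the untransfected ones. The difference of MKNK1 was smallest in batch 2, at 0.09, and 0.46 on average (unadjusted p = 0.00478 in limma). THAP3, a zinc finger protein, had a mean difference of 0.45 and batch differences of 0.36, 0.19 and 0.81. CCDC23, the small partner protein of the vasohibin tubulin peptidases, was higher by 0.69 with H2O2 and by 0.75 without (unadjusted p = 0.00731 and 0.00381 in limma). EFNA1 encodes ephrin-A1, a membrane-bound ligand of Eph receptors. It was at -0.18, 0.93 and 0.25 against -0.48, -0.55 and -0.38, and its mean difference of 0.80 ± 0.61 (SD over 3 batches) was 0.46 (unadjusted p = 0.118 in limma) without the library that stood apart. PPIE, a cyclophilin of the spliceosome, and GMEB1, a DNA-binding protein of glucocorticoid response, had differences of 0.37 and 0.36, each of 1 sign in all batches.

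Over the 12 leading higher rows the mean differences ran from 0.36 to 1.25, or from 1.28-fold to 2.38-fold. The groups did not overlap in any of the 12, and all empty vector libraries lay above all untransfected ones in 112 of the 1131 rows of chromosome 1 (9.90%). Without the library that stood apart, 8 of the 12 kept an unadjusted p under 0.05. The 4 that did not were RSRP1 (0.39), STPG1 (0.32), EFNA1 (0.46) and CENPL (0.34). The rule took rows for their low p and their single sign, so these counts describe the choice.

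**Figure D3:**
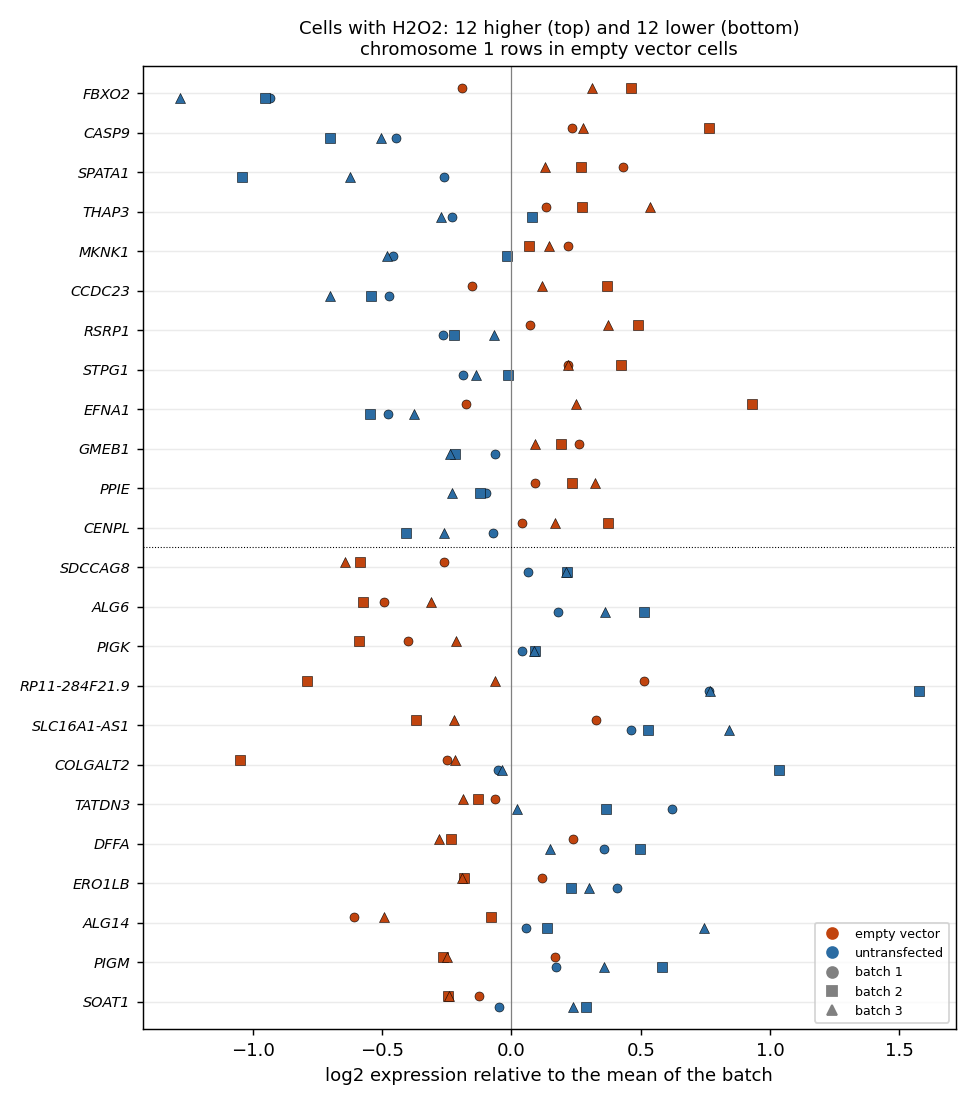
Log2 value relative to the batch mean (x axis) of the 12 higher and 12 lower leading chromosome 1 rows (y axis) in the 6 libraries with H2O2. Red points are empty vector and blue points untransfected cells, and symbols mark the batch. Colours separate in every row but DFFA, and the batch 2 points of COLGALT2 and RP11-284F21.9 lie farthest apart.

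The lowest p among the lower rows belonged to SDCCAG8, which encodes a protein of centrosomes and the base of cilia. SDCCAG8 (ENSG00000054282, chr1:243256034-243500091, plus strand) was at -0.26, -0.59 and -0.64 in the empty vector libraries. It was at 0.06, 0.22 and 0.21 in the untransfected libraries, all above the empty vector libraries. The mean difference was -0.66 ± 0.29 (SD over 3 batches), or 1.58-fold lower, with an unadjusted p of 0.000303 and an adjusted p of 0.296 in limma. Without the library that stood apart it was -0.61 (unadjusted p = 0.00242 in limma), and in untreated cells it was -0.46 (unadjusted p = 0.00602 in limma).

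ALG6, ALG14, PIGK and PIGM were among the lower rows and were grouped after their values were seen. ALG6 adds a glucose to the lipid-linked oligosaccharide from which N-glycans are transferred. It was at -0.49, -0.57 and -0.31 in the empty vector libraries and at 0.18, 0.51 and 0.36 in the untransfected ones, a difference of -0.81 ± 0.24 (SD over 3 batches) with an unadjusted p of 0.00266 in limma. ALG14, which takes part in an earlier step of the same oligosaccharide, was at -0.61, -0.08 and -0.49 against 0.06, 0.14 and 0.75. Its difference of -0.71 was smallest in batch 2 and reached -0.89 (unadjusted p = 0.00503 in limma) without the library that stood apart. PIGK, the protease subunit of the transamidase that attaches glycosylphosphatidylinositol (GPI) anchors, was at -0.40, -0.59 and -0.21 against 0.04, 0.09 and 0.09. PIGM, a mannosyltransferase of GPI anchor synthesis, had batch differences of -0.01, -0.85 and -0.61, so batch 1 showed next to none.

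A list of 12 N-glycan and GPI anchor genes of chromosome 1 was written after these 4 had been seen, so it carries no test. Those 4 were lower and none was higher, where 4.86% of chromosome 1 rows were lower and 4.24% higher. The members had been seen first, so nothing is read from the count, and the median of the list was -0.00, as over all rows. The other 8 ran from UAP1 at -0.29 to DPM3 at 0.35. DDOST, a subunit of the oligosaccharyltransferase, was at 0.03 and PIGC, of the first enzyme of GPI synthesis, at -0.03.

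ERO1LB and SOAT1 encode further enzymes of the endoplasmic reticulum. ERO1LB, which oxidises protein disulphide isomerase and yields H2O2, was at 0.12, -0.18 and -0.19 in the empty vector libraries and at 0.41, 0.23 and 0.30 in the untransfected ones. The difference of ERO1LB was -0.40 ± 0.10 (SD over 3 batches), with an unadjusted p of 0.0103 in limma. SOAT1, which esterifies cholesterol, was at -0.13, -0.25 and -0.24 against -0.05, 0.29 and 0.24, and its difference of -0.36 was -0.43 in untreated cells.

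The remaining lower rows were COLGALT2, TATDN3 and 2 long non-coding RNAs. COLGALT2, a galactosyltransferase of collagen, was at -0.25, -1.05 and -0.22 against -0.05, 1.03 and -0.04. Its batch difference was -2.08 in batch 2 and -0.20 and -0.18 in the others, so its mean of -0.82 was set by 1 batch and was -0.19 (unadjusted p = 0.336 in limma) without replicate 2. RP11-284F21.9, a long non-coding RNA at chr1:156637783-156641004 on the minus strand, was at 0.51, -0.79 and -0.06 against 0.77, 1.57 and 0.77. Batch 2 was also the widest for RP11-284F21.9, at -2.36, and the mean difference of -1.15 ± 1.09 (SD over 3 batches) was -0.76 without the doubted library and -0.54 (unadjusted p = 0.105 in limma) without replicate 2. SLC16A1-AS1, the antisense transcript of the lactate transporter gene SLC16A1, was lower by 0.70, and the SLC16A1 row was lower by 0.27. The groups did not overlap in 11 of the 12 leading lower rows, and empty vector lay wholly below untransfected in 106 rows of chromosome 1 (9.37%). Of the 12 rows, 9 kept an unadjusted p under 0.05 without the library that stood apart, and COLGALT2 (-0.51), DFFA (-0.34) and PIGM (-0.40) did not.

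Interferon and nucleic acid sensing genes, the textbook answer to foreign DNA, had 7 rows on chromosome 1. None of them passed an unadjusted p under 0.05, and their median difference was -0.10. ISG15, a ubiquitin-like interferon target, was at 0.62, 0.13 and -0.02 in the empty vector libraries and at -0.04, 0.12 and 0.27 in the untransfected ones. IFI6, a mitochondrial interferon target, was at -0.04, 0.41 and -0.33 against -0.47, 0.23 and 0.16. The groups overlapped for both, and the batch differences of both had opposite signs, 0.66, 0.01 and -0.30 for ISG15 and 0.44, 0.18 and -0.48 for IFI6. The mean differences of 0.12 (SE 0.34) and 0.04 (SE 0.27) have an error of several times their own size. The RNA editing enzyme ADAR was at -0.17 and the helicase DHX9 at -0.16.

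For the gene lists that follow, counts at an unadjusted p under 0.05 stand against 9.11% of all chromosome 1 rows (4.24% higher, 4.86% lower), and 605 of the 1131 rows lay above 0. Of 15 immediate early and stress kinase genes, RGS2 passed and the other 14 did not. RGS2 shortens signalling through G proteins. It was at 0.12, 0.45 and 0.29 in the empty vector libraries and at 0.13, -0.51 and -0.50 in the untransfected ones, so the difference of 0.58 came from batches 2 and 3, and it was 0.49 (unadjusted p = 0.0771 in limma) without the doubted library. JUN, a subunit of the AP-1 transcription factor, was at 0.60, -0.11 and -0.35 against 0.51, -0.33 and 0.59. ATF3, induced by many stresses, was at 0.80, 0.18 and -0.18 against 0.87, 0.39 and 0.57, lower in all 3 batches with a mean of -0.34 (SE 0.34, unadjusted p = 0.322 in limma). The median of the list was 0.08, and -0.11 without replicate 2.

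None of the 14 genes of the p53 pathway passed the threshold, with a median of -0.05. GADD45A, a p53 target that responds to DNA damage, was at 1.05, 0.14 and -0.03 in the empty vector libraries and at 1.38, 0.77 and 0.35 in the untransfected ones. It was lower in each batch, by 0.33, 0.63 and 0.38, with a mean difference of -0.44 ± 0.16 (SD over 3 batches). The libraries of each group differed by more than that from batch to batch. From the spread pooled over all 24 libraries, limma gave an SE of 0.48 and an unadjusted p of 0.37. That SE is not the spread of the differences within batches. SESN2, a p53 and stress target, had batch differences of 0.34, -0.41 and -0.82.

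Thiol and glutathione genes had 1 lower member of 11, GCLM, and a median of -0.19. GCLM encodes the modifier subunit of the enzyme that limits glutathione synthesis. It was at -0.04, -0.45 and -0.43 in the empty vector libraries and at 0.12, 0.12 and 0.12 in the untransfected ones, which did not overlap. The difference of GCLM was -0.43 ± 0.23 (SD over 3 batches, unadjusted p = 0.0152 in limma) with H2O2 and -0.02 in untreated cells, and the difference between these was not called (unadjusted p = 0.0852 in limma). Without the doubted library GCLM was at -0.35 (unadjusted p = 0.0737 in limma), so the list then had no called member. PRDX6, a peroxidase of phospholipid and hydrogen peroxides, was lower in all 3 batches with a mean of -0.23, and PRDX1, a thiol peroxidase, had batch differences of -0.28, 0.22 and -0.60. TXNIP, which binds thioredoxin, was at -0.69, -0.32 and -1.21 against -0.30, -1.61 and 0.44. Its batch differences of -0.40, 1.29 and -1.65 were among the largest of the list and opposed each other. The median over the 11 genes was negative while the medians within batches were -0.16, 0.04 and 0.05.

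tRNA synthetase and serine synthesis genes gave the lowest median of the 21 lists, -0.40 over 8 rows, against -0.00 over all rows and 0.02 over chromosome 1. All 8 were below 0, and 3 passed an unadjusted p under 0.05: YARS and EPRS, which load tyrosine and glutamate or proline on tRNA, and MTR, the methionine synthase. YARS was at 0.09, -0.40 and -0.01 in the empty vector libraries and at 0.17, 0.68 and 0.20 in the untransfected ones. EPRS had batch differences of -0.06, -1.20 and -0.01 and MTR of -0.08, -0.79 and -0.35. The list's median was -0.09 in batch 1, -0.93 in batch 2 and -0.01 in batch 3, so batch 2 gave nearly all of it. None of the 3 calls held without the doubted library, with YARS at -0.29, EPRS at -0.23 and MTR at -0.23 (unadjusted p = 0.156, 0.29 and 0.195 in limma). Without replicate 2 the median was -0.06, and without the doubted library alone -0.25. In untreated cells it was -0.24, with YARS the only member that passed, at -0.41.

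Mitosis genes had 3 higher and 2 lower rows of 23 and a median of 0.14. None of the 3 higher calls held without the doubted library, and both lower ones did. The higher ones were CENPL, of the inner kinetochore, at 0.44, and 2 further genes outside the naming rule. These were CDC20, the activator of the anaphase-promoting complex, at 0.61 and KIF2C, a microtubule-depolymerising kinesin, at 0.43. The lower ones were SDCCAG8 and NEK7, a kinase of the mitotic spindle, at -0.51. CDC20 had batch differences of 0.10, 1.24 and 0.49 and KIF2C of 0.15, 0.86 and 0.27, again widest in batch 2. Without the doubted library CENPL was at 0.34, CDC20 at 0.40 and KIF2C at 0.30 (unadjusted p = 0.0851, 0.229 and 0.202 in limma). The median of the list was 0.05, 0.46 and -0.06 in batches 1, 2 and 3, and -0.05 without replicate 2.

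Genes of DNA replication and repair had 2 called rows of 24, close to the share over chromosome 1, and a median of -0.14. There were 5 of 24 above 0. E2F2, a transcription factor of S phase genes, was lower by 0.49 and DCLRE1B, a nuclease of telomeres and crosslink repair, was higher by 0.30, with unadjusted p of 0.0474 and 0.049 in limma, and of 0.0548 and 0.125 without the doubted library. E2F2 was at 0.20, 0.18 and -0.16 in the empty vector libraries and at 0.46, 0.63 and 0.59 in the untransfected ones. CDC7, the kinase that fires replication origins, was at -0.39 and did not pass the threshold. The median was -0.09, -0.33 and -0.08 in the 3 batches and -0.15 in untreated cells, where 1 gene was higher and 2 were lower.

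Other lists had at most 3 rows past the threshold. The 9 sterol genes had a median of -0.02, with SOAT1 lower by 0.36. PPIE was the single called member of 18 protein folding genes, with a median of 0.08. HNRNPU, a nuclear matrix and splicing protein, was lower by 0.44 and was the single called member of 23 splicing factors, and it was at -0.29 (unadjusted p = 0.134 in limma) without the doubted library. CLCC1, an anion channel of the endoplasmic reticulum, was lower by 0.59 among 32 genes of lysosomes, endosomes and vesicle traffic, and by 0.13 without the doubted library. The endosomal genes had a median of 0.10, with 23 of 32 above 0, and of 0.04 without the doubted library. Of 27 transcription factors, MEF2D and ZBTB40 were higher by 0.42 and 0.44 and MYCL was lower by 0.42, each with 1 sign in all 3 batches. Without the doubted library MEF2D was at 0.23 and ZBTB40 at 0.26 (unadjusted p = 0.264 and 0.239 in limma), and MYCL at -0.41 (unadjusted p = 0.0457 in limma).

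No member passed an unadjusted p under 0.05 among 4 proteasome subunits, 5 cytosolic and 8 mitochondrial ribosomal proteins, 7 respiratory chain genes, 4 RNA helicases, 28 chromatin regulators, 2 histone genes and 3 snoRNA host genes. Their medians ran from -0.19 for the histone genes to 0.17 for the snoRNA hosts. Chromosome 1 also holds ADGRB2, MOV10 and TMEM222, which were picked for RT-PCR in the study. ADGRB2, an adhesion receptor, was higher by 0.47 (unadjusted p = 0.035 in limma). Its batch differences were 1.27, 0.06 and 0.09, so batch 1 gave most of it. MOV10, an RNA helicase, was at -0.14 with H2O2 and at -0.64 without (unadjusted p = 0.437 and 0.00201 in limma). TMEM222 was at -0.12 with H2O2. In untreated cells ADGRB2 was at 0.77 and TMEM222 at -0.46 (unadjusted p = 0.00145 and 0.0153 in limma).

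**Figure D4:**
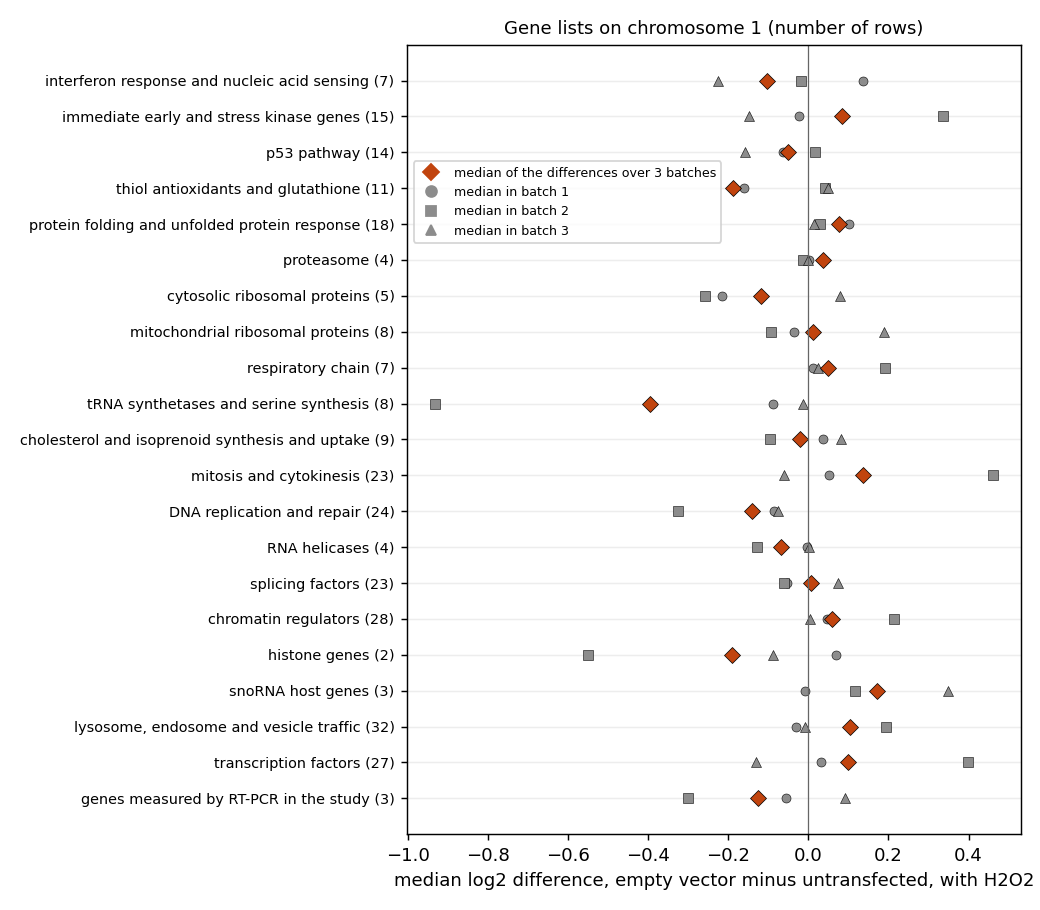
Median log2 difference, empty vector minus untransfected with H2O2 (x axis), of 21 gene lists of chromosome 1 (y axis, number of rows in brackets). Red diamonds are medians over the mean differences and grey symbols the medians within each batch. The tRNA synthetase list lies lowest among the larger lists, at -0.40, with -0.93 in batch 2 and -0.09 and -0.01 in the others.

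The same pair of groups without H2O2 gave 1397 rows at an unadjusted p under 0.05 (12.1%), 125 of them on chromosome 1 (11.1%), and again none at an adjusted p under 0.05. These are other libraries from the same 3 batches, centred together with the libraries with H2O2. Of the 103 chromosome 1 rows called with H2O2, 87 (84.5%) had the same sign in untreated cells, against 736 (65.1%) of all 1131 rows. There were 23 rows with an unadjusted p under 0.05 and the same sign in both, 22.3% of the 103 and 18.4% of the 125. SPATA1, CCDC23, PPIE, SDCCAG8, PIGK, PIGM and SOAT1 were among them. PPIE was at 0.09, 0.23 and 0.32 in empty vector and at -0.10, -0.12 and -0.23 in untransfected cells with H2O2, and its untreated difference was 0.55 (unadjusted p = 0.000774 in limma). Within a batch, differences with and without H2O2 had correlations of 0.104, 0.470 and 0.157 across rows in batches 1, 2 and 3.

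**Figure D5:**
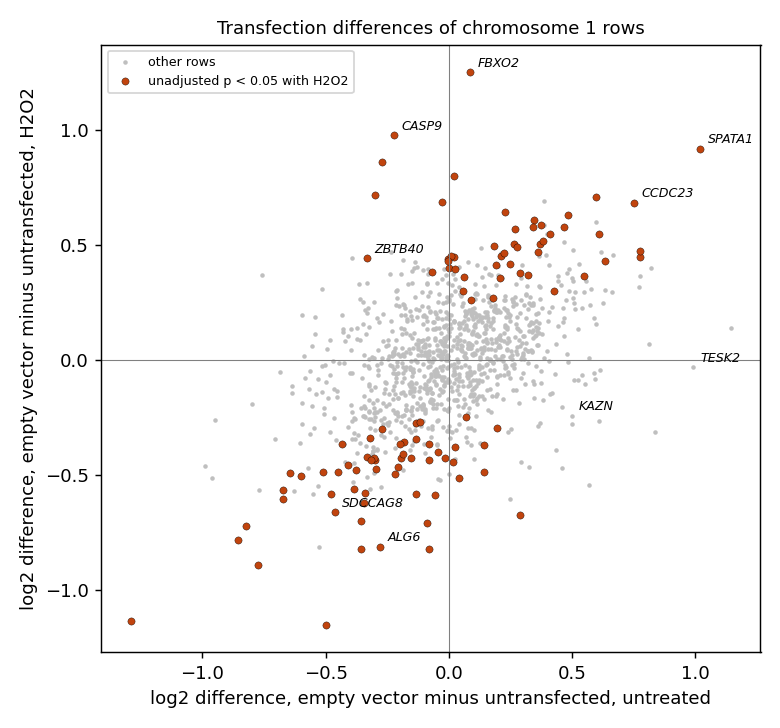
Log2 difference, empty vector minus untransfected, of the 1131 chromosome 1 rows in untreated cells (x axis) and in cells with H2O2 (y axis). Red points are the 103 rows with an unadjusted p under 0.05 with H2O2. SPATA1 and SDCCAG8 lie far from 0 on both axes, FBXO2 and CASP9 mainly on the y axis and TESK2 on the x axis.

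A change of the transfection difference with H2O2 was tested as an interaction in the same model. No row passed an adjusted p under 0.05, and 367 (3.17%) passed an unadjusted one, 31 of them on chromosome 1 (2.74%). CASP9 had the lowest p of the rows higher with H2O2. Its untreated values were 0.10, -0.58 and -0.87 in empty vector and -0.15, -0.11 and -0.43 in untransfected cells, and the interaction was 1.20 (SE 0.32, unadjusted p = 0.00125 and adjusted p = 1.00 in limma). FBXO2 in untreated cells was at -0.16, 0.04 and -0.41 against -0.04, -0.78 and 0.01, with a difference of 0.09 and an interaction of 1.16 (SE 0.35, unadjusted p = 0.00361 in limma). Untransfected cells with H2O2 had the lowest FBXO2 values of these 4 groups in every batch. TESK2, a kinase of the actin regulator cofilin, went the other way: it was higher by 0.99 in untreated empty vector cells and at -0.03 with H2O2, an interaction of -1.02 (SE 0.31, unadjusted p = 0.00371 in limma). TESK2 in untreated untransfected cells was at -0.67, -0.80 and -1.50, below the other 3 groups. KAZN followed, with 0.50 in untreated cells, -0.24 with H2O2 and an interaction of -0.74 (unadjusted p = 0.00948 in limma).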

How the data were processed

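RNA from HEK293 cells was made into 3′ end libraries (QuantSeq FWD, single reads of 75 bp) and analysed by the authors with Ensembl release 90 of GRCh38. An FPKM cut-off of 10 was applied in Qlucore Omics Explorer 3.3. The aligner is not given in the sources used here. The authors deposited normalised log2 values of 11579 rows in 24 libraries, with a mean of 0 for each row within each batch. Groups came from the sample titles and pairing from the batch in the labels. No column of values was left unused (0), and depth is unknown.

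The 8 group means and a replicate block were modelled in limma 3.58.1 (R 4.3.3; 14 residual and 5.04 prior degrees of freedom), after a test on simulated data. Tests were two-sided with Benjamini-Hochberg adjustment over all rows. An exact test of 3 against 3 libraries cannot go below 0.1. Identifiers were looked up in GENCODE release 44 (94.1% found), and names were used on chromosome 1 only. An overlapping gene is one that shares an exon position.

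Named genes were the 12 lowest p in each direction with 1 sign in all batches, up to 3 per list, 9 fixed stress genes and 3 per direction of the interaction. The comparison, the 21 lists and the rule were chosen with earlier results of these data known, and 2 lists were added after the values were seen. Python 3.11.15 with pandas 2.3.3 and matplotlib 3.10.9 was used for the rest. The transfected gene MECOM was not analysed here, and some results that the naming rule gives are not reported here.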

Additional observations from a re-analysis of the deposited data

Results flagged for a closer look

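The transfection difference of ZBTB40, a zinc finger protein, was positive in all 3 batches with H2O2 (0.52, 0.79 and 0.02) and negative in all 3 without (-0.09, -0.66 and -0.25), with an interaction of 0.77 (unadjusted p = 0.0131 and adjusted p = 1.00 in limma). That of ABL2, a tyrosine kinase of the actin cytoskeleton, was negative in all 3 batches with H2O2 (-0.28, -0.30 and -0.31). It was positive in all 3 without (0.14, 0.40 and 0.05), with an interaction of -0.49 (unadjusted p = 0.0158 and adjusted p = 1.00 in limma). Without the doubted library, the difference with H2O2 was 0.26 for ZBTB40 and -0.24 for ABL2 (unadjusted p = 0.239 and 0.132 in limma). Over all rows, 3.17% passed the interaction at an unadjusted p under 0.05.

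The row labelled CACNB3, which enters no comparison by name, stood at 4.36 in the empty vector library with H2O2 of replicate 2, above the other 2 libraries of that group (-3.48 and -2.17) and above all untransfected libraries.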

How the results depend on the processing

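Leaving out replicates moved the counts most. With each replicate or the doubted library left out, rows at an unadjusted p under 0.05 ranged from 228 to 659 for higher and from 148 to 623 for lower, against 517 and 454. On chromosome 1 they ranged from 29 to 125, with 29 without replicate 2, and for the interaction from 231 to 534. Rows at an adjusted p under 0.05 ranged from 0 to 1, the 1 being a row off chromosome 1 without replicate 1. The fit without the replicate block gave 667 higher and 601 lower rows, 132 on chromosome 1, and none at an adjusted p under 0.05. Rows were already centred within each batch and groups were balanced over batches. The block thus left the differences as they were and changed the residual degrees of freedom, 14 with it and 16 without. Setting these fits side by side therefore cannot show whether the pairing matters. Median centring, quantile normalization, no moderation, and fits of 6 or 12 libraries kept every count within 1.5 times. Of 89 named genes, 20 lost an unadjusted p under 0.05 without the doubted library and 11 in the fit of 6 libraries. Without replicates 1, 2 and 3 in turn, 9, 24 and 22 lost it.

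Signs turned only in leave-outs, for genes that never passed in the comparison with H2O2. The ranges of the log2 difference were -0.064 to 0.215 for PSMB2, -0.49 to 0.042 for MRPL24, -0.259 to 0.0013 for MOV10, -0.0192 to 0.0804 for DDX59, -0.146 to 0.079 for HIST3H2A, -0.277 to 0.042 for GAS5, -0.18 to 0.31 for IFI6, -0.14 to 0.34 for ISG15, -0.43 to 0.15 for JUN, -1.02 to 0.45 for TXNIP and -0.17 to 0.16 for TESK2. The causes were not tested. List medians without the doubted library were added after the data were seen. No filter on low values or pseudocount could be varied, since the table holds no level, and 3 libraries a group limit the precision.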

Other observations

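Exons on the opposite strand were frequent among the higher genes. Of the 48 coding and long non-coding rows of chromosome 1 that were higher in empty vector cells with H2O2, 27 (56.2%) shared an exon position with a gene of the other strand, against 19 of 53 lower rows (35.8%) and 400 of all 1093 (36.6%). Among the 12 leading higher rows 10 had such a gene, and among the 12 leading lower rows 3. In untreated cells the shares were 44.4% of 63 higher and 21.1% of 57 lower rows. Without the library that stood apart, they were 69.2% of 13 higher and 36.8% of 19 lower rows. No test was run, and whether reads were counted by strand is not given in the sources used here.

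The partners of named genes did not follow one sign. BMP8B, opposite PPIE, was at -0.58 while PPIE was at 0.37. PEX14, opposite DFFA, was at 0.45 with DFFA at -0.43. SLC16A1 and its antisense transcript SLC16A1-AS1 were both below 0.

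Higher protein-coding genes of chromosome 1 had a median length of 22.02 kb (n = 45) and lower ones of 51.2 kb (n = 50), against 34.5 kb for all 1045. RefSeq promoter windows of 300 bases on GRCh38.p14, matched for 911 of those genes, held the GC box GGGCGG on either strand in 67.6% of 37 higher, 69.8% of 43 lower and 72.2% of all genes. The CCAAT box was in 32.4%, 34.9% and 38.6%.

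3 rows off the naming rule, seen only afterwards, had large differences. G0S2, an inhibitor of the triglyceride lipase ATGL, was at -0.15, -0.61 and -0.92 in empty vector and at 0.19, 0.84 and 0.70 in untransfected cells with H2O2, a difference of -1.14 (SE 0.52, unadjusted p = 0.0435 in limma), and it was at -1.29 in untreated cells. LRRC8D, a subunit of volume-regulated anion channels, was at 0.29, -0.56 and -0.46 against 0.16, 0.67 and 0.77. WNT2B, a Wnt ligand, had batch differences of 0.42, -2.25 and -0.62, so its mean of -0.82 came from batch 2.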
